A study of Hydra vulgaris with 113 samples.

Results

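Between 3 h and 8 h after amputation, the tissue that rebuilds a head in the freshwater polyp Hydra vulgaris was compared in transcript levels and in open chromatin. The groups were the untreated head regenerates of 8 h and of 3 h, and they held 14 of the 113 samples. Libraries were assigned to them by label, and the groups were chosen with earlier results of these data known. At each time 3 libraries were RNA-seq, all made with the TruSeq kit, and ATAC-seq contributed 3 libraries at 3 h and 5 at 8 h. Polyps of strain 105 were bisected halfway along the body column, and the regenerating tips were collected from the cut end of each piece. Each RNA-seq library pooled about 30 tips and each ATAC-seq library about 15, so a replicate is a pool of animals, not 1 animal. For comparison, untreated foot regenerates of 3 h and 8 h had the same numbers of libraries and the same kit. Head regenerates kept in 5 µM iCRT14, an inhibitor of the pairing of TCF with β-catenin, had 4 ATAC-seq libraries at 3 h and 5 at 8 h. That treatment began 2 h before amputation, and no RNA-seq of 3 h tips in iCRT14 was used here. Untreated head tips of 0 h and 12 h served only to place levels in time.

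A Hydra polyp keeps a head organiser at its oral end, and canonical Wnt signalling, in which β-catenin enters the nucleus and acts with the DNA-binding protein TCF, marks and maintains it. Both a head and a foot can regrow from the same mid-body tissue, depending on which side of the cut the tissue lies. In many animals injury rapidly activates bZIP transcription factors such as Jun, Fos, ATF and CREB, which bind DNA as dimers. ATAC-seq reads mark DNA that is open to a transposase. A motif deviation score usually states whether the peaks holding a given factor's motif are more or less open in a library than the other libraries of the same table would give.

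The RNA-seq libraries of both times held 16154188 to 19207371 estimated counts each. ATAC-seq depth differed between the times: untreated head tips had 28039894 to 37922765 counts per library at 3 h and 13541165 to 24162511 at 8 h, and iCRT14 head tips 4733808 to 10163692 at 8 h. Replicate 1 of the 3 h head ATAC-seq libraries stood apart from the other two. Its counts differed from theirs with a chi-square per degree of freedom of 11.7 and 11.8, against 3.64 between replicates 2 and 3. Replicate 5 of 8 h differed from replicates 1 to 4 with values of 5.12 to 8.36, against 3.10 to 4.69 among those 4. Without it 8437 peaks were called, 3524 more open and 4913 less open, of which 7247 were among the 9236 called with all libraries, and 189 motifs, 167 of them among the 172. Results on chromatin and motifs are given with all libraries, and the counts of calls, the sets of peaks and the named features also without replicate 1 of 3 h. The files do not pair gene IDs or peaks with gene names, so the tissue label could not be checked against markers and gene models are given by ID.

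Transcript levels differed at many genes by small amounts. Of 19537 gene models tested, 2512 (12.9%) passed edgeR's quasi-likelihood test at an adjusted p below 0.05, with 1271 (6.51%) higher and 1241 (6.35%) lower at 8 h. The median log2 change was 0.29 among those that rose and -0.44 among those that fell. Changes of more than 2-fold were made by 127 rising and 215 falling genes, and more than 4-fold by 36 and 63. The 3 h and 8 h libraries did not overlap at 1228 of the risen and 1206 of the fallen genes, beside 5260 (26.9%) of all genes tested. In libraries of pooled tissue, fewer cells of a type and less RNA per cell cannot be told apart. With scaling by library size alone the calls numbered 725 higher and 1821 lower, so the split between directions depends on the scaling. Leaving out replicate 2 of 3 h left 1606 calls, and leaving out replicate 3 left 1633.

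Levels at 0 h placed these calls in time. For the genes that rose, the median level in head tips was 41.5 CPM (counts-per-million, scaled by TMM) at 0 h, 41.0 at 3 h and 52.7 at 8 h. For the genes that fell it was 19.0 CPM at 0 h, 21.4 at 3 h and 15.7 at 8 h. The risen genes thus had a median at 3 h close to that of 0 h, and the fallen genes had a median at 8 h below both earlier times. The 3 h and 8 h values chose these genes, so only the 0 h medians add to the calls. Over all genes tested the medians were 7.74, 7.90 and 7.68 CPM.

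Of the genes with a mean of at least 10 CPM at the higher time, g1253 and g24952 had the largest rises. g1253 stood at 1.09, 0.492 and 0.682 CPM at 3 h and at 11.6, 13.0 and 10.3 CPM at 8 h. Its 8 h libraries were all far above its 3 h libraries, a log2 change of 3.92 ± 0.26 (SE, n = 3 and 3; edgeR adjusted p = 5.74e-11). g24952 rose from 3.27, 1.69 and 4.15 CPM to 40.1, 28.5 and 29.6 CPM, a log2 change of 3.43 ± 0.20 (SE). Again the groups did not overlap, and the 0 h libraries of both genes, at 0.199 to 0.634 CPM and 1.85 to 3.18 CPM, were as low as those of 3 h or lower.

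The largest falls were those of g4715 and g11698. g4715 stood at 101, 109 and 90.5 CPM at 3 h and at 11.9, 9.29 and 10.3 CPM at 8 h, a log2 change of -3.25 ± 0.08 (SE; edgeR adjusted p = 6.71e-19). Its 0 h libraries held 4.47, 5.07 and 5.72 CPM, so that 3 h was a peak and 8 h still lay above the start. g11698 fell from 10.8, 12.6 and 10.7 CPM to 0.811, 1.55 and 2.16 CPM, a log2 change of -2.92 ± 0.25 (SE). Its 0 h mean was 0.267 CPM, below every library of 8 h. Both genes were thus high at 3 h and low at the times on either side.

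Chromatin accessibility changed at a smaller share of sites, and the called sites had larger median changes than the called genes. Of 108934 peaks tested, 9236 (8.48%) passed edgeR's quasi-likelihood test, with 3620 (3.32%) more open and 5616 (5.16%) less open at 8 h. The median log2 change was 0.87 among the opened peaks and -0.61 among the closed ones. More than 2-fold changes were made by 1356 opened and 765 closed peaks. Changes of more than 4-fold were made by 151 and 50 of them, beside 36 and 63 of the 2512 called gene models. The smallest change that can be called depends on level and spread, so these sizes do not rank the 2 assays. The libraries of the 2 times did not overlap at 2698 opened and 4665 closed peaks, beside 15329 (14.1%) of all peaks tested.

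The split of the peak calls between directions depended on the libraries used and on the scaling. Without replicate 1 of 3 h, 8176 peaks were called, with 4545 more open and 3631 less open. Of the 9236 peaks, 5374 (58.2%) were called again with the same sign, and all 9236 kept their direction. Scaling by library size alone moved the median change of all peaks by 0.12 on the log2 scale and gave 6156 opened and 3368 closed peaks. Leaving out replicate 2 of 3 h gave 6140 calls and leaving out replicate 3 gave 5033. The depth difference between the times moves with these counts, and its part in them was not tested.

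The opened and closed peaks differed in height and width. The opened peaks had a median of 4.06 CPM over the libraries and a median width of 600 bp, close to the 3.84 CPM and 595.5 bp of all peaks. The closed peaks had medians of 16.5 CPM and 878 bp. Without replicate 1 of 3 h the medians were 3.27 CPM and 704 bp for opened and 18.5 CPM and 918 bp for closed peaks. Closed peaks were thus taller and wider than the typical peak in both sets, and the part of peak height in the calls was not tested.

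Changed peaks that lay near each other mostly moved the same way. Among 2171 neighbouring pairs of changed peaks within 10000 bp, 1868 (86.0%) changed in the same direction, 564 pairs upwards and 1304 downwards. For comparison, the direction was shared by 54.9% of 5593 pairs of successive changed peaks that lay farther apart on a scaffold. Over all 84725 neighbouring pairs of tested peaks within that distance, called or not, 59.0% had the same sign. Without replicate 1 of 3 h the share was 87.9% of 1585 neighbouring pairs, 711 upwards and 683 downwards, beside 55.4% of the pairs farther apart. The longest run held 11 successive closed peaks on scaffold Sc4wPfr_161 from 1142691 to 1177865, with log2 changes of -1.78 to -0.72. The longest run of opened peaks held 9, on scaffold Sc4wPfr_834.1 from 775586 to 805433, with log2 changes of 1.00 to 3.06. The longest runs held 9 closed and 7 opened peaks without replicate 1 of 3 h. Positions are as deposited. The genome build and the annotation at these positions are not given in the sources used here.

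Among peaks with at least 10 CPM at the higher time and no overlap between times, 6 with the largest opening were followed library by library. The peak at Sc4wPfr_165:384774-385162 stood at 2.32, 2.08 and 3.22 CPM at 3 h and at 61.3, 37.6, 36.03, 40.0 and 62.5 CPM at 8 h. Every 8 h library was more than 10 CPM above every 3 h library, and the log2 change was 4.22 ± 0.31 (SE, n = 3 and 5; edgeR adjusted p = 6.01e-19). The peak at Sc4wPfr_177.1:915851-916159 opened from 0.258, 0.842 and 1.32 CPM to 22.4, 7.48, 9.68, 13.2 and 16.6 CPM, a log2 change of 4.06 ± 0.36 (SE). Both stayed high at 12 h, when their libraries held 45.5 to 59.4 CPM and 29.9 to 37.1 CPM. At 0 h they held 1.57 to 3.58 CPM and 1.04 to 2.29 CPM.

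The other 4 opened peaks varied more between the 8 h libraries, relative to their level. At Sc4wPfr_513:81401-81625 the 3 h libraries held 0.368, 0.0561 and 0.117 CPM and the 8 h libraries 25.9, 24.3, 9.93, 1.13 and 4.62 CPM, a log2 change of 6.21 ± 0.79 (SE; edgeR adjusted p = 7.19e-09). The groups did not overlap, but replicates 1 and 2 of 8 h were far above replicate 4. At 12 h this peak was back at 0.126 to 0.641 CPM.

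The peaks at Sc4wPfr_492.1:161821-162349, Sc4wPfr_1127:748776-748920 and Sc4wPfr_227:1027994-1028239 shared the order of that peak's 8 h libraries at both ends, with replicate 1 highest and replicate 4 lowest. The first opened from 1.22, 1.32 and 1.43 CPM to 39.3, 18.5, 10.9, 2.99 and 11.6 CPM, a log2 change of 3.63 ± 0.66 (SE). The second opened from 4.72, 5.19 and 1.26 CPM to 77.7, 55.7, 36.6, 12.9 and 29.3 CPM, a log2 change of 3.51 ± 0.64 (SE). The third opened from 1.07, 1.43 and 0.703 CPM to 21.5, 14.5, 8.30, 2.75 and 7.67 CPM, a log2 change of 3.33 ± 0.66 (SE). The size of opening at these 4 peaks thus varied several-fold between pools of the same age.

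The 6 peaks with the largest closing were high in all 3 libraries of 3 h. At Sc4wPfr_338.1:843134-845588, the tallest of them, the 3 h libraries held 290, 150 and 190 CPM and the 8 h libraries 33.1, 30.9, 29.4, 36.9 and 26.7 CPM. That log2 change was -2.74 ± 0.23 (SE; edgeR adjusted p = 3.95e-16), and the 0 h libraries held 21.1 to 35.6 CPM, the range of 8 h. At Sc4wPfr_405:442123-443132 the levels went from 81.6, 41.9 and 53.5 CPM to 6.18, 7.34, 7.92, 5.29 and 8.18 CPM, a log2 change of -3.08 ± 0.26 (SE). In both peaks replicate 1 of 3 h was the highest library, and no 8 h library came near a 3 h library.

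The peak at Sc4wPfr_391:1727276-1727606 closed from 17.3, 8.56 and 6.12 CPM to 0.765, 1.29, 1.51, 1.41 and 1.11 CPM, a log2 change of -3.11 ± 0.31 (SE). At Sc4wPfr_798:329653-329996 it was 22.7, 14.5 and 17.6 CPM at 3 h and 2.74, 1.58, 2.89, 1.62 and 1.90 CPM at 8 h, a log2 change of -3.10 ± 0.27 (SE). This last peak ended below its 0 h mean of 8.49 CPM, whereas the first was back near its 0 h range of 0.786 to 1.84 CPM. Scaffold Sc4wPfr_155 held a pair of closed peaks next to each other, at 266502 to 268800 and at 269210 to 270049. The first held 219, 123 and 145 CPM at 3 h and 22.4, 21.7, 23.2, 22.3 and 20.4 CPM at 8 h. The second held 39.3, 22.1 and 29.3 CPM and then 4.33, 3.96, 6.73, 4.49 and 5.32 CPM. Their log2 changes were -2.88 ± 0.23 (SE) and -2.60 ± 0.25 (SE). All 12 of these peaks were still called without replicate 1 of 3 h, with log2 changes of 3.34 to 7.14 for the opened and -2.89 to -2.35 for the closed.

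**Figure D1:**
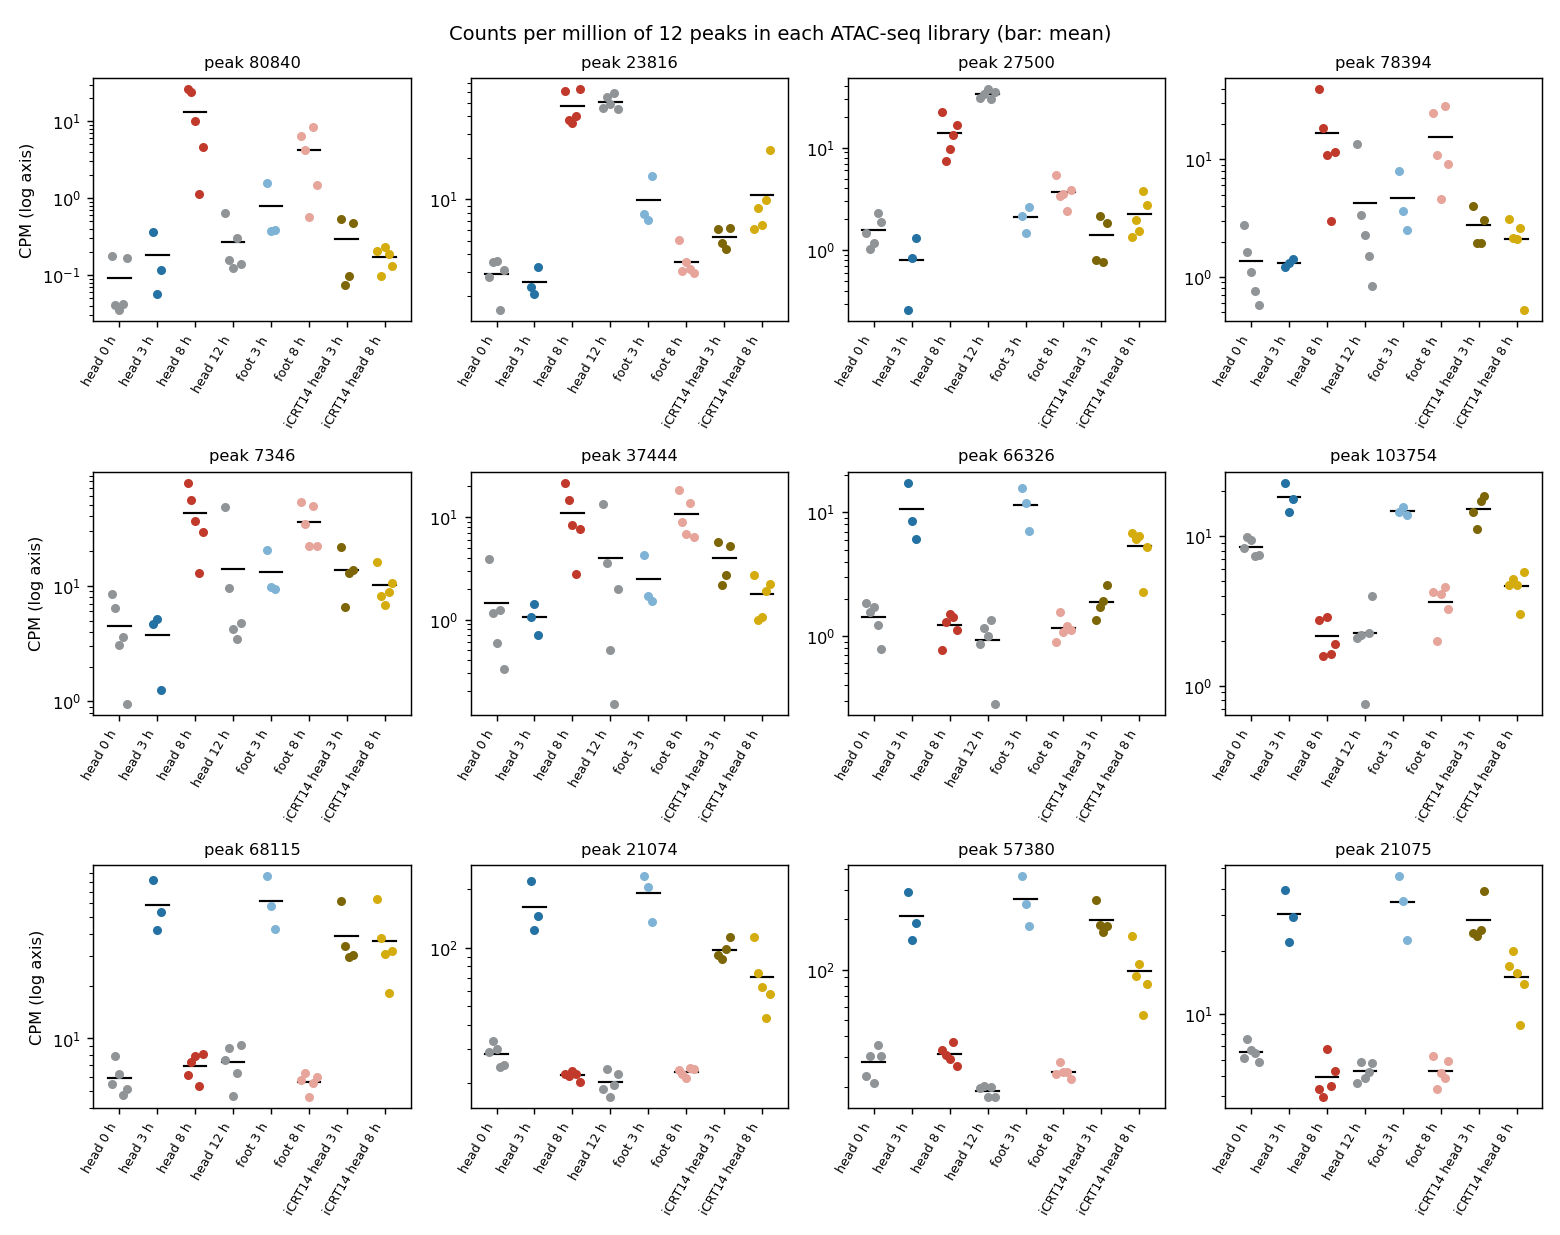
Level of each of the 12 named peaks in every ATAC-seq library, in CPM on a log axis, for untreated head, untreated foot and iCRT14 head tips by hours after amputation. Points are libraries and bars are group means. The peak at Sc4wPfr_165:384774-385162 is at 36.03 to 62.5 CPM at 8 h in untreated head tips and at 2.91 to 5.08 CPM in foot tips, whereas the peak at Sc4wPfr_513:81401-81625 is high at 8 h and back at 0.126 to 0.641 CPM at 12 h.

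As sets, the changed peaks lay on one side of their 0 h level at 3 h and on the other side at 8 h. In untreated head tips the opened peaks had a median of 3.87 CPM at 0 h and 2.84 CPM at 3 h, followed by 5.22 CPM at 8 h and 4.98 CPM at 12 h. The closed peaks had medians of 15.1, 20.1, 13.0 and 12.7 CPM at the same times. The opened set was lowest at 3 h and the closed set highest, and both kept their 8 h side at 12 h. The 3 h and 8 h values chose these peaks, so only the 0 h and 12 h levels add to the calls. Chosen and averaged without replicate 1 of 3 h, the opened peaks had medians of 3.003, 2.13, 4.48 and 3.93 CPM and the closed peaks 17.1, 22.6, 14.2 and 14.0 CPM.

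**Figure D2:**
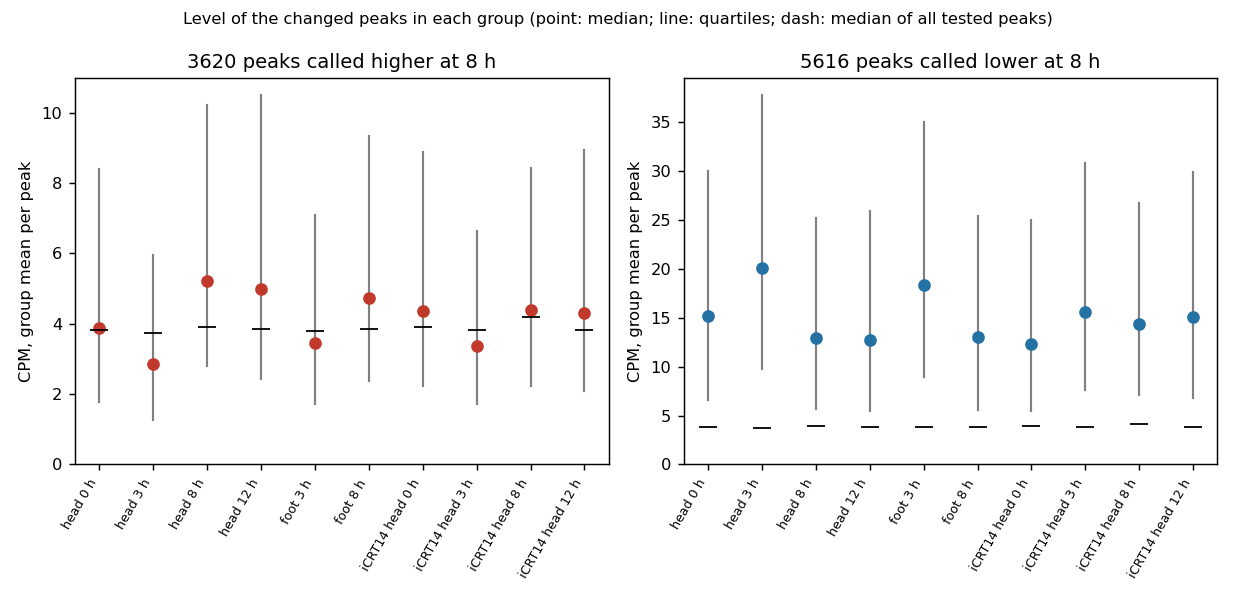
Median level and quartiles, in CPM, of the 3620 opened and 5616 closed peaks in each group, with a dash at the median of all peaks tested. The opened set is lowest at 3 h (2.84 CPM) and the closed set highest at 3 h (20.1 CPM) in untreated head tips.

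Motif scores changed for a large share of the motifs, and whether that share was a majority depended on the libraries used. Of 332 motifs, 172 (51.8%) passed limma's test at an adjusted p below 0.05, with 73 (22%) higher and 99 (29.8%) lower at 8 h. Leaving out replicate 1 of 3 h left 159 calls, 69 higher and 90 lower, of which 141 were among the 172 with the same sign. The scores have no unit: each is a deviation relative to the libraries of its table. A motif's name is that of the vertebrate, insect or other factor it was drawn from, and related factors share motifs, so that the motifs of a list are not independent measurements.

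TCF/LEF motifs, which TCF reads in Wnt-responsive DNA, rose most. All 3 rose, with a median difference in score of 4.44, beside -0.0954 over all 332 motifs. The Tcf4 motif scored -2.85, -2.04 and -1.56 at 3 h and 5.11, 3.37, 3.18, 3.74 and 4.44 at 8 h. The difference was 6.12 ± 0.61 (SE, n = 3 and 5; limma adjusted p = 7.01e-13), and 5.77 without replicate 1 of 3 h. Here n counts the libraries compared, and the SE uses the spread within groups over all 71 libraries. Every Tcf4 score was negative at 3 h and positive at 8 h. The 0 h mean was -1.81 and the 12 h mean 5.32, so that 3 h lay near 0 h and 8 h near 12 h. The Tcf3 motif (the HMG-box protein) went from -0.936, -0.270 and -1.60 to 3.66, 3.88, 3.50, 3.41 and 3.08, a difference of 4.44 ± 0.51 (SE). TCFL2 went from -0.368, -0.440 and 0.0192 to 3.98, 3.52, 2.16, 2.98 and 2.63, a difference of 3.32 ± 0.47 (SE).

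Motifs of RFX factors, which control cilium genes in other animals, rose at 5 of 5, with a median of 2.87. The motif named RFX scored -2.82, -0.345 and -1.66 at 3 h and 2.68, 1.18, 3.41, 2.25 and 1.94 at 8 h, a difference of 3.90 ± 0.58 (SE; limma adjusted p = 6.23e-08). The groups did not overlap, and the 8 h scores lay near the 0 h mean of 2.95. Of the Sox motifs, read by HMG-box factors known from vertebrate stem and progenitor cells, 5 of 7 rose, with a median of 2.00. Sox2 went from -2.87, -1.86 and -2.78 to 3.26, 1.47, 3.01, 2.14 and 1.56, a difference of 4.79 ± 0.55 (SE). All of its 8 h libraries were above 0 and all of its 3 h libraries below.

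Of the Smad motifs, read by the effectors of BMP and TGF-β signalling, 2 of 3 rose, with a median of 1.98. Smad4 went from -1.57, -2.87 and -2.96 to 1.55, 0.894, 3.90, 2.11 and 2.73, a difference of 4.70 ± 0.57 (SE; limma adjusted p = 2.84e-10). This score was also positive at 0 h (mean 2.29) and negative at 12 h (mean -1.45), so that 8 h lay nearer to 0 h than to 3 h or 12 h. Gfi1b, a zinc-finger repressor's motif, went from -2.43, -2.10 and -2.91 to 2.44, 1.14, 1.90, 2.48 and -0.307, with replicate 5 of 8 h lowest but still above the 3 h libraries. Motifs of E2F, a family that controls cell-cycle genes, rose at 4 of 5, with a median of 2.24. The motif named E2F overlapped between times, at -2.87, 0.462 and 0.0958 and then 3.73, 5.49, 4.12, 1.38 and -0.498. Its call was lost in a fit on only the 3 h and 8 h head libraries (limma adjusted p = 0.0647). Only 2 of the 5 E2F motifs were called without replicate 1 of 3 h, and all 3 TCF/LEF, 5 RFX, 5 Sox and 2 Smad calls were counted again.

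CRE-type bZIP motifs, bound by ATF and CREB dimers, fell most. All 6 fell, with a median difference of -9.11. Atf1 scored 6.10, 7.90 and 13.1 at 3 h and -6.12, -3.42, -7.13, -6.48 and 3.23 at 8 h. The difference was -13.01 ± 1.71 (SE; limma adjusted p = 2.7e-09). Replicate 5 of 8 h stood between the other 8 h libraries and the 3 h libraries, and the same library was highest at 8 h for Atf7, JunD and c-Jun-CRE. The Atf1 mean at 0 h was -8.63 and at 12 h 0.74, so that most of the 3 h rise was gone by 8 h and the 12 h score lay between. The other 5 motifs differed by -10.59 (Atf7), -9.37 (JunD), -8.86 (c-Jun-CRE), -7.96 (CRE) and -7.89 (Atf2).

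AP-1 type motifs, bound by Jun and Fos, fell at 6 of 7, by a median of -2.23, less than the CRE type. The motif named AP-1 scored 2.56, 3.28 and 2.46 at 3 h and 1.43, -0.963, 0.0856, -0.749 and 0.661 at 8 h, a difference of -2.67 ± 0.69 (SE; limma adjusted p = 0.000952). The groups did not overlap, and every 8 h library was still above the 0 h mean of -3.40. CEBP and Atf4 type motifs fell at 4 of 5, with a median of -3.73. Chop, the stress-response bZIP factor's motif, went from 3.66, 1.69 and 3.26 to -1.97, -1.45, -3.52, -1.62 and -0.923, a difference of -4.77. Both Egr motifs, of a zinc-finger family that responds to injury in vertebrates, fell, with a median of -3.86. KLF and Sp motifs fell at 7 of 8 (median -1.20) and RUNX motifs at 3 of 4. The counts of fallen motifs in all 6 of these lists were the same without replicate 1 of 3 h.

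bZIP motifs did not move as a block. Of the 7 Bach, NRF and Maf motifs, 2 fell and 1 rose. The riser was Bach1, which went from 0.881, 1.56 and 0.104 to 3.24, 1.90, 3.22, 1.64 and 1.76, a difference of 1.51. Its libraries did not overlap, but its call was lost without replicate 3 of 3 h (limma adjusted p = 0.0533). The 37 bHLH motifs split, with 9 higher and 17 lower. When they were divided by name, a division made after their values were seen, the 13 Myc, Max, USF and CLOCK type motifs all fell, with a median of -4.25. Among 15 E2A, MyoD and NeuroD type motifs 8 rose and none fell, with a median of 1.63. All 13 of the first group still fell without replicate 1 of 3 h, and 5 of the 15 rose. In the scores deposited for untreated libraries alone, all 13 falls were called again, but only 3 of the 8 rises. BMAL1 of the first group, a partner of CLOCK, scored 3.56, 2.72 and 3.46 at 3 h and -3.02, -0.0916, -1.19, -1.87 and -2.73 at 8 h, a difference of -5.03 ± 0.47 (SE). All 8 h scores were below 0 and all 3 h scores above.

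The other lists gave fewer or mixed calls. Homeobox motifs rose at 9 and fell at 8 of 39, and nuclear receptor motifs at 6 and 12 of 29. POU and Paired motifs rose at 5 and fell at 1 of 17, IRF and STAT motifs at 5 and 3 of 14, and T-box motifs at 2 and 1 of 6. Of 21 ETS motifs 4 fell, of 13 Forkhead motifs 2 rose, and of 9 GATA motifs 1 fell. NF-kB motifs rose at 1 and fell at 2 of 5, while CTCF and p53 each fell at 1 of 3. None of the 3 TEAD and 5 MADS motifs passed the test, but 2 TEAD motifs rose and 2 MADS motifs fell without replicate 1 of 3 h. Without that library the rises and falls were 7 and 5 for homeobox, 6 and 9 for nuclear receptor, 2 and 2 for IRF and STAT, 1 and 5 for ETS and 6 and 16 for bHLH motifs. They were then 5 and 2 for POU and Paired, 1 and 1 for NF-kB and 1 and 1 for p53 motifs, while 3 Forkhead motifs rose, 2 GATA motifs fell and no CTCF motif was called. Among 66 motifs in no list, 14 rose and 18 fell, or 15 and 14 without it. YY1, a zinc-finger factor's motif in none of the lists, rose by 3.51 ± 0.72 (SE), with replicate 5 of 8 h at -1.11. The YY1 call was lost in a fit on only the 3 h and 8 h head libraries (limma adjusted p = 0.0563). Each motif named above was still called without replicate 1 of 3 h, with differences of 1.52 to 5.77 for the risen and -14.47 to -2.78 for the fallen.

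**Figure D3:**
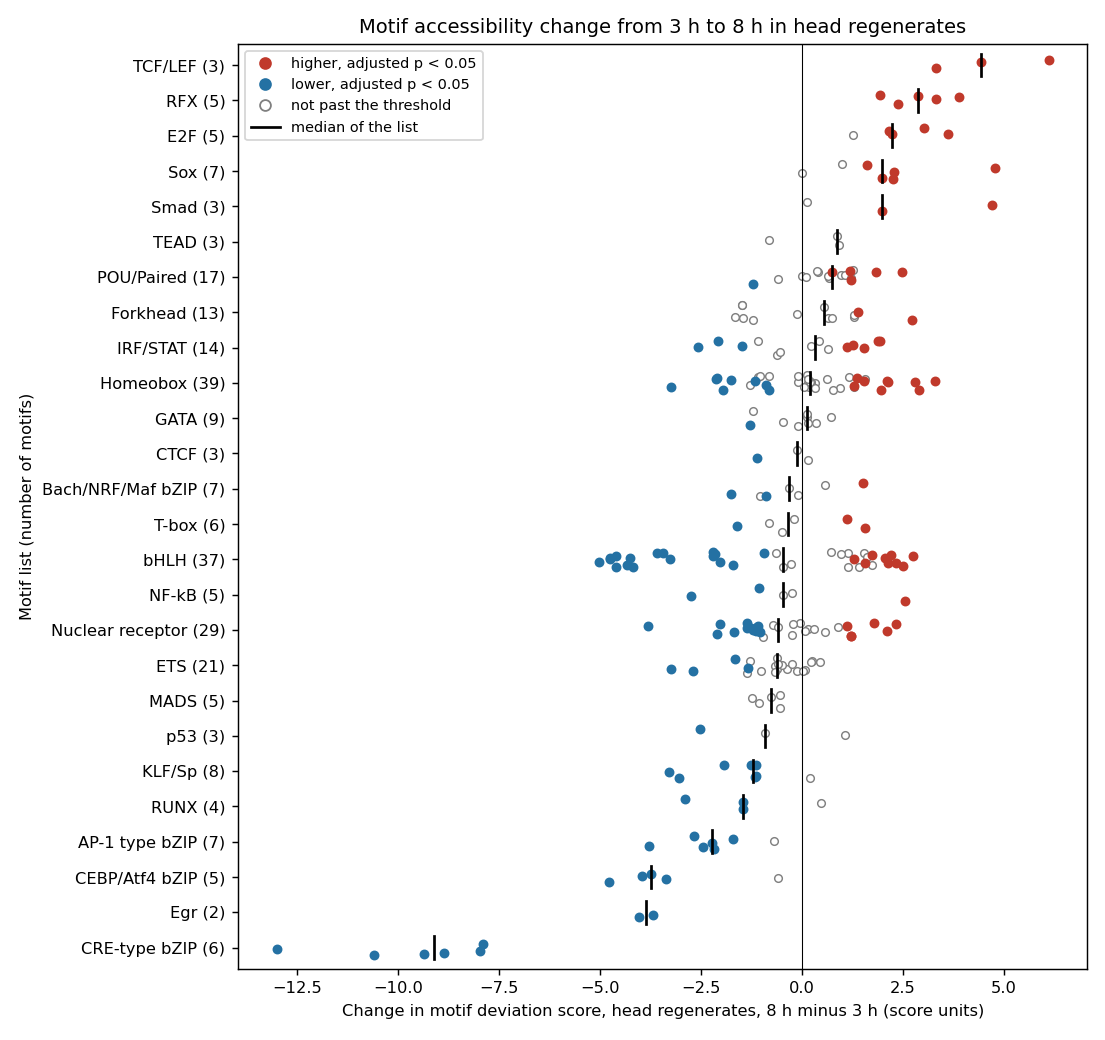
Difference in motif deviation score between 8 h and 3 h in untreated head tips, grouped by motif list; each point is a motif and the score has no unit. CRE-type bZIP motifs lie lowest (median -9.11) and TCF/LEF motifs highest (median 4.44).

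The same interval in foot regenerates asks which changes depend on the side of the cut. In RNA, 2157 gene models (11%) changed in foot tips, 962 (4.92%) upwards and 1195 (6.12%) downwards. Of the head calls, 1127 were also called with the same sign in foot tips, 509 rising and 618 falling, which is 44.9% of the head list and 52.2% of the foot list. Another 46 were called with opposite signs. All 4 genes with the largest head changes moved the same way in foot tips. g1253 went from 2.10, 0.856 and 1.63 CPM to 16.1, 18.8 and 20.7 CPM there, and g4715 from 108, 107 and 110 CPM to 4.52, 4.80 and 5.19 CPM. The fall of g4715 was smaller in head tips, by 1.23 on the log2 scale (edgeR adjusted p = 1.25e-06). g24952 rose more in head tips, by 1.61 (edgeR adjusted p = 0.00142).

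The difference of the 2 changes itself was called at 364 gene models (1.86%), 275 (1.41%) more positive in head tips and 89 (0.456%) more negative. These 275 were mostly genes that fell in foot tips: 185 passed the test downwards there and 23 upwards, whereas 123 rose and 59 fell in head tips. Their median level in head tips was 18.3 CPM at 0 h, 30.4 at 3 h and 34.2 at 8 h, and in foot tips 17.9, 35.9 and 20.7 CPM. The 3 h and 8 h values of both sides chose these genes, so only the 0 h levels add to the calls. Of the 89 genes, 40 fell and 4 rose in head tips, and 59 rose and 9 fell in foot tips.

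The largest positive difference was that of g33373. In head tips it rose from 4.78, 4.64 and 8.52 CPM to 35.4, 42.5 and 36.8 CPM, and in foot tips it fell from 6.20, 6.91 and 8.49 CPM to 1.71, 0.587 and 1.03 CPM. The 2 sides overlapped at 3 h and were far apart at 8 h, a difference of 5.40 ± 0.38 (SE, log2; edgeR adjusted p = 1.25e-09). At 0 h its libraries held 0.0975 to 0.617 CPM in head tips. The largest negative difference, of g32959, rests on few counts: 11, 3 and 6 at 3 h and 5, 0 and 0 at 8 h in head tips, against 0, 0 and 4 and then 8, 16 and 18 in foot tips. Its call (edgeR adjusted p = 0.026) was lost when any of 8 libraries was left out, with adjusted p from 0.0551 to 0.144.

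In chromatin, 8725 peaks (8.01%) changed in foot tips, 2894 (2.66%) opening and 5831 (5.35%) closing. Of the head calls, 3237 were shared with the same sign, 35.0% of the head list and 37.1% of the foot list. They held 856 opened and 2381 closed peaks, and 63 more were called with opposite signs. Without replicate 1 of 3 h head tips 2432 were shared, 711 opened and 1721 closed, which is 29.7% of the head list and 26.8% of the foot list. The difference itself was called at 837 peaks (0.768%), 689 (0.632%) more positive in head tips and 148 (0.136%) more negative. Of the 689, 474 closed and 7 opened in foot tips, while 265 opened and 38 closed in head tips. Their median was 6.95 CPM in 0 h head tips, 9.27 at 3 h, 12.4 at 8 h and 14.5 at 12 h, and in foot tips 12.3 CPM at 3 h and 6.20 at 8 h. The values at 3 h and 8 h chose these peaks as well. With replicate 1 of 3 h head tips left out, 660 peaks were called, 531 and 129, of which 579 were among the 837. With replicate 2 left out, 505 were called, and without replicate 5 of 8 h head tips 612. Same-numbered head and foot libraries of 3 h deviated together (r of 0.71, 0.44 and 0.36), whereas those of 8 h did not throughout (-0.15 to 0.34). With same-numbered libraries of each time as a block, a fit on these 4 groups called 2732 peaks, 2172 more positive and 560 more negative, against 615 for the same fit with no block.

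All 3 named opened peaks whose change differed by side rose more in head tips. They were named for a large opening in head tips, which is part of this difference. At Sc4wPfr_513:81401-81625 the foot libraries of 8 h held 6.39, 4.24, 0.573, 8.41 and 1.49 CPM, a log2 change of 2.47 that was smaller than in head tips by 3.74 (edgeR adjusted p = 0.0368). That call was lost without any of 8 libraries (0.0519 to 0.385) and in 4 other fits (0.0559 to 0.406). At Sc4wPfr_177.1:915851-916159 the foot change did not pass the test, and the changes differed by 3.24. The peak at Sc4wPfr_165:384774-385162 closed in foot tips, from 7.84, 7.07 and 14.8 CPM to 5.08, 3.05, 3.51, 3.14 and 2.91 CPM. Foot tips were above head tips at 3 h and far below them at 8 h, and the difference of changes was 5.72 ± 0.40 (SE, log2; edgeR adjusted p = 1.24e-19), the largest positive one. The next largest, at Sc4wPfr_224.1:63486-63783, opened in head tips from 1.81, 1.71 and 1.46 CPM to 22.6, 7.27, 10.1, 12.9 and 19.4 CPM. In foot tips it went from 2.83, 2.48 and 3.67 CPM to 1.91, 0.934, 1.15, 1.79 and 0.835 CPM, a difference of 4.31 ± 0.41 (SE).

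On the negative side, the peak at Sc4wPfr_417.3:1604995-1605152 closed in head tips from 7.001, 10.8 and 5.68 CPM to 0.956, 0.791, 2.58, 0.970 and 1.25 CPM. In foot tips it held 0.944, 0.292 and 0.269 CPM and then 0.717, 0.685, 0.787, 0.747 and 3.27 CPM. It was thus high in 3 h head tips alone of these 4 groups, with a difference of -4.05 ± 0.60 (SE). The peak at Sc4wPfr_608.1:310295-310612 was low throughout, at 0.737 to 1.55 CPM at 3 h and 0.216 to 0.508 CPM at 8 h in head tips. Its difference of -2.86 was lost without replicate 5 of 8 h foot tips (edgeR adjusted p = 0.104). With replicate 1 of 3 h head tips left out, all of these differences by side were still called, at 2.89 to 5.70 for the positive and -4.10 to -3.08 for the negative ones.

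**Figure D4:**
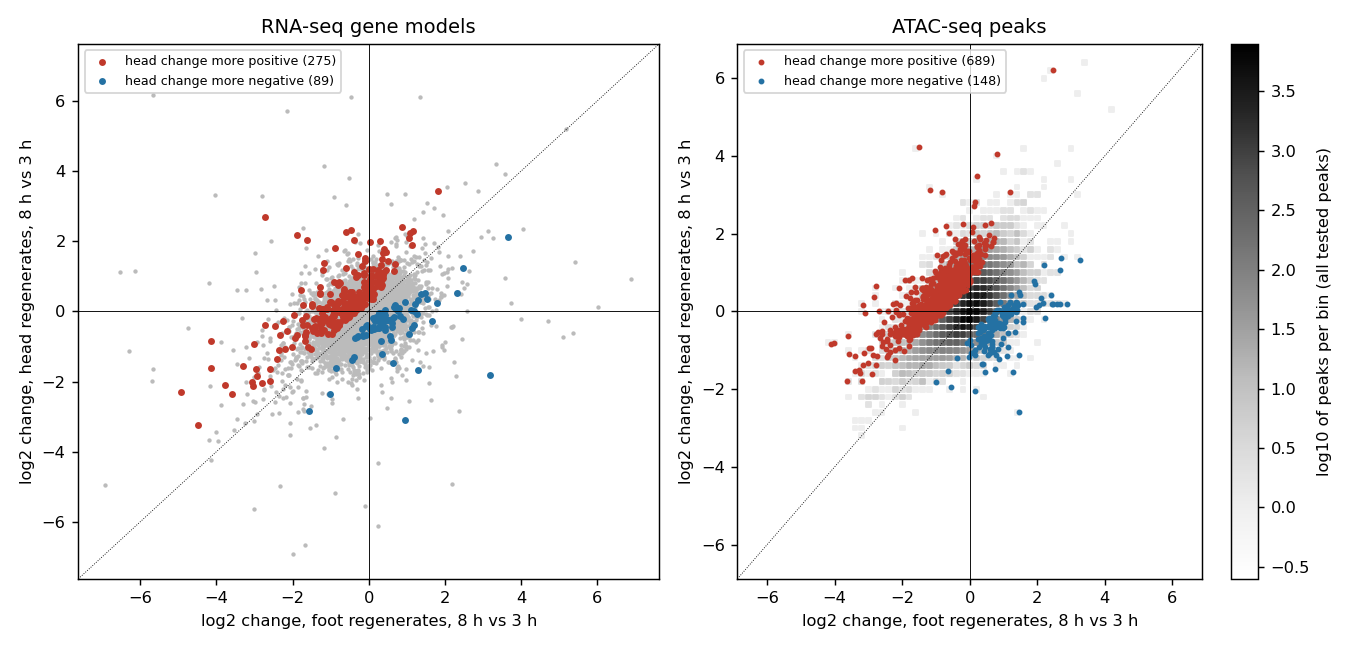
Log2 change from 3 h to 8 h in head tips (y axis) against that in foot tips (x axis), for gene models and, binned, for peaks. Features whose change differed by side are coloured, red for the 275 genes and 689 peaks more positive in head tips and blue for the 89 and 148 more negative. Red features lie mostly at negative foot changes.

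Among motifs, 214 (64.5%) changed in foot tips, 97 (29.2%) upwards and 117 (35.2%) downwards, and 91 (27.4%) differed in change by side, 48 (14.5%) more positive and 43 (13%) more negative in head tips. Leaving out replicate 1 of 3 h head tips gave 70, of which 66 were among the 91. All 3 TCF/LEF motifs were more positive in head tips, with and without that library. The Tcf4 motif scored -2.08, -1.38 and -0.363 in foot tips of 3 h and -1.52, -1.75, -2.27, -2.74 and -1.36 in those of 8 h. No foot library was above 0 at either time, and the difference of changes was 6.77 ± 0.86 (SE; limma adjusted p = 2.23e-08), the largest of all motifs, and was 6.42 without replicate 1 of 3 h head tips. Smad4 was also more positive in head tips, by 3.72 ± 0.81 (SE; limma adjusted p = 0.000564). RFX changed by 3.90 on both sides, and CRE-type motifs fell at 6 of 6 on both. For Atf1 the foot scores went from 5.94, 11.4 and 8.82 to -8.45, -7.72, -8.55, -11.6 and -4.22.

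ETS motifs were more positive in head tips at 11 of 21, where 18 of 21 fell in foot tips. The count was 7 of 21 without replicate 1 of 3 h head tips. The homeobox motif Nkx6.1 was more positive in head tips by 5.21 and the CRE motif by 5.67, while Pbx3, NFY and E2F7 were more negative, by -3.37, -3.33 and -3.26. The head changes of Nkx6.1 (1.56), NFY (1.36) and E2F7 (1.26) did not pass limma's test. Their foot changes, of -3.64, 4.69 and 4.52, did. Pbx3 changed by -2.11 in head tips, and its foot change of 1.26 did not pass. The CRE motif changed by -7.96 in head and -13.63 in foot tips. JunD was more positive by 4.21 (limma adjusted p = 0.0402), a call lost without replicate 1 of 3 h head tips (3.82, 0.0976) and without 8 other libraries (0.0550 to 0.113). The CRE difference was lost without replicate 1 of 3 h head tips (limma adjusted p = 0.0647), without replicate 5 of 8 h head tips (0.0683) and without 4 other libraries (0.0527 to 0.0773). That of E2F7 was lost without any of 9 libraries (0.0505 to 0.113), and that of Pbx3 without replicate 2 of 3 h foot tips (0.0521).

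Head regenerates in iCRT14 ask which of these changes differed under an inhibitor of TCF and β-catenin pairing. In iCRT14, 18557 peaks (17%) changed from 3 h to 8 h, 9314 (8.55%) opening and 9243 (8.48%) closing. The difference of the untreated and the iCRT14 change was called at 4222 peaks (3.88%), 1585 (1.46%) more positive and 2637 (2.42%) more negative in untreated tips. Of the 1585, 437 opened in untreated tips and 1059 closed in iCRT14. Of the 2637, 1421 closed in untreated tips and 1204 opened in iCRT14. The 3 h and 8 h values of both treatments chose these peaks. At 3 h the 1585 had a median of 5.97 CPM in untreated and 9.34 CPM in iCRT14 tips, and the 2637 had 13.0 and 8.43 CPM. The count of 4222 rested on 1 library. Without replicate 1 of untreated 3 h head tips it was 1152, with 420 and 732. Of these, 1136 were among the 4222, and all 4222 kept their direction. Of the 420, 180 opened in untreated tips and 248 closed in iCRT14, and of the 732, 371 closed in untreated tips and 416 opened in iCRT14. With scaling by library size alone it was 2477 and 2671, and with DESeq2 2574 and 2772.

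All 6 named opened peaks had a more positive change, and all 6 named closed peaks a more negative one, in untreated tips than in iCRT14. The difference was called at 3.88% of all peaks tested. These 12 peaks were named for their large untreated change, which is part of this difference, so the choice itself favoured that direction. Without replicate 1 of untreated 3 h tips, 1 of these 12 differences was lost, that of Sc4wPfr_798:329653-329996 (-1.41, and then -1.18 with edgeR adjusted p = 0.14). That of Sc4wPfr_513:81401-81625 was lost without replicate 4 of 3 h iCRT14 tips (0.0738). Sc4wPfr_165:384774-385162 held 6.06, 4.87, 4.34 and 6.19 CPM at 3 h and 6.14, 8.73, 6.47, 9.97 and 22.7 CPM at 8 h in iCRT14. No iCRT14 library of 8 h reached the lowest untreated one, and the changes differed by 3.22 ± 0.40 (SE, log2; edgeR adjusted p = 3.53e-08). At Sc4wPfr_513:81401-81625 no iCRT14 library of 8 h was above 0.235 CPM, against 1.13 CPM or more in untreated head tips. Its counts were 10, 2 and 4 in untreated tips of 3 h and 1 to 2 in iCRT14 tips of 8 h. The fitted differences ranked highest were those of a neighbour of that peak, at Sc4wPfr_513:85044-85212, and of Sc4wPfr_38:838217-838370. Both rest on counts near the smallest value listed, 1 to 4 in untreated tips of 3 h and 1 to 2 in iCRT14 tips of 8 h, so that the size of these differences is not exact. The first held 0.0737, 0.0281 and 0.117 CPM at 3 h and 9.24, 8.92, 3.33, 0.808 and 2.03 CPM at 8 h in untreated tips. The second had 2, 4 and 1 counts at 3 h and 201, 172, 68, 12 and 44 at 8 h. Both again had replicate 1 highest and replicate 4 lowest.

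Sc4wPfr_405:442123-443132 held 61.8, 34.1, 29.3 and 30.1 CPM at 3 h and 63.2, 37.8, 30.6, 18.3 and 31.8 CPM at 8 h in iCRT14, a log2 change of -0.07 ± 0.24 (SE) that did not pass the test. The changes differed by -3.01 ± 0.36 (SE; edgeR adjusted p = 1.91e-08). Sc4wPfr_338.1:843134-845588 closed in iCRT14 too, from 169 to 259 CPM down to 53.8 to 159 CPM, but by less, with a difference of -1.74 ± 0.31 (SE). The pair of peaks on Sc4wPfr_391 went the other way. The first, at 1727276 to 1727606, rose in iCRT14 from 1.35, 1.72, 1.93 and 2.57 CPM to 6.87, 6.08, 6.47, 2.26 and 5.21 CPM, a difference of -4.62 ± 0.46 (SE). Its neighbour at 1727888 to 1728054 fell from 8.92, 4.88 and 2.93 CPM to 0.446, 0.647, 1.70, 0.606 and 0.508 CPM in untreated tips, with a difference of -4.16 ± 0.57 (SE). These last differences were -4.04 and -3.61, both still called, without replicate 1 of untreated 3 h tips.

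In iCRT14, 76 motifs (22.9%) changed, 39 (11.7%) upwards and 37 (11.1%) downwards, and at 143 (43.1%) the change differed between untreated and treated tips, 64 (19.3%) more positive and 79 (23.8%) more negative in untreated tips. Leaving out replicate 1 of untreated 3 h tips gave 123, of which 119 were among the 143. None of the 3 TCF/LEF motifs passed limma's test in iCRT14, and all 3 differed between the treatments. Tcf4 scored -1.24, 0.107, 0.509 and -0.784 at 3 h and -0.198, -0.448, -1.08, -1.16 and 0.666 at 8 h in iCRT14. The ranges of the times overlapped, and the changes differed by 6.21 ± 0.82 (SE; limma adjusted p = 2.26e-08), or by 5.86 without replicate 1 of untreated 3 h tips.

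RFX motifs differed at 4 of 5, and at 2 of 5 without replicate 1 of 3 h. The one named RFX stayed low in iCRT14, at -3.46, -3.44, -3.34 and -3.04 and then -2.67, -3.06, -3.38, -2.09 and -2.71. Smad4 differed by 3.40 ± 0.77 (SE; limma adjusted p = 0.000277). E2A motifs had the largest positive differences after Tcf4, at 5.24 for the one found near PU.1 sites and 4.62 for the other. Sox motifs rose at 6 of 7 in iCRT14, and 1 of 7 differed between treatments, Sox2 by 2.13. Its call was lost without replicate 1 of untreated 3 h tips (1.95, limma adjusted p = 0.0513) and without replicate 1 of 8 h iCRT14 tips (0.0518). The difference of the motif named E2F, 2.82, was lost without replicate 1 of untreated 3 h tips (1.77, limma adjusted p = 0.229) and without 5 other libraries (0.0552 to 0.0898).

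CRE-type motifs fell at 5 of 6 in iCRT14, with a median of -3.99, and differed at 6 of 6. Atf1 went from 6.92, 13.0, 10.7 and 8.89 to 4.98, 8.03, 5.59, -0.132 and 3.57 there, so that 4 of 5 libraries of 8 h were still above every untreated one. Its difference of -7.53 was lost without replicate 3 of untreated 3 h tips (limma adjusted p = 0.0639), as was that of CRE, -6.07 (0.0529). AP-1 type motifs differed at 6 of 7, and both counts were the same without replicate 1 of untreated 3 h tips. The motif named AP-1 scored 1.29, 1.77, 2.49 and 0.498 at 3 h and 3.05, 3.75, 3.99, 2.28 and 2.13 at 8 h in iCRT14, with a difference of -4.20. All 13 Myc, Max, USF and CLOCK type motifs were more negative in untreated tips, with and without that library. BMAL1 held 0.231 to 1.04 at 3 h and -0.712 to 0.706 at 8 h in iCRT14, below the untreated scores at 3 h and above most of them at 8 h.

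**Figure D5:**
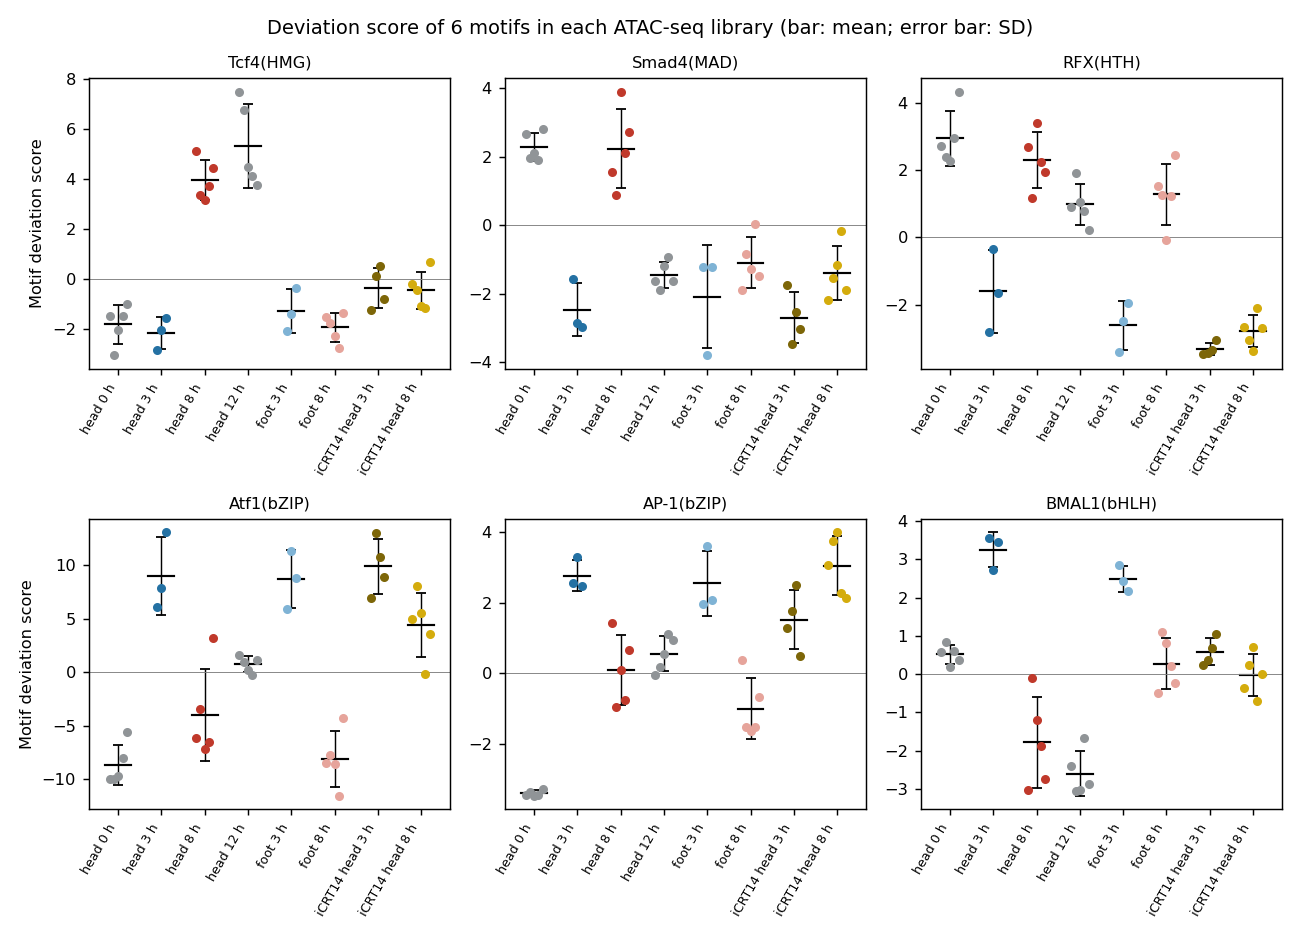
Deviation score of 6 motifs (no unit) in every library of untreated head tips at 0, 3, 8 and 12 h, untreated foot tips and iCRT14 head tips at 3 and 8 h; points are libraries and bars mean and SD. Tcf4 is above 0 in untreated head tips of 8 h (3.18 to 5.11) and 12 h, and Atf1 falls in all 3 kinds of tip.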

How the data were processed

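RNA-seq and ATAC-seq were made from pooled regenerating tips of Hydra vulgaris strain 105. The authors deposited RNA-seq as estimated counts for 33820 gene models (42 libraries) and ATAC-seq as counts for 115968 peaks (71 libraries). They also deposited motif deviation scores, per the file headers, for 332 motifs of the same 71 libraries, with a further table of untreated libraries alone for counts (106568 peaks) and scores. Per the submitters' processing notes the tools were Trimmomatic 0.36, RSEM 1.2.31 and Bowtie2 for RNA-seq, and Trimmomatic 0.36, Bowtie2 2.2.6, Picard 2.17.8, SAMtools 1.2, deepTools 3.3.1 and DiffBind for ATAC-seq. The genome build, the annotation and how the scores were computed are not given in the sources used here. In the estimated counts 24.8% of values were not whole, and they were rounded first. The smallest ATAC-seq count is 1 (3.94% of values), so a low level there is an upper value; subtracting 1 throughout was tried as an alternative.

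Counts were scaled with TMM after filterByExpr and tested with edgeR 4.0.16 (glmQLFit, glmQLFTest), with 1 mean per group. RNA-seq used the 18 untreated libraries of 0, 3 and 8 h, all of the TruSeq kit, and ATAC-seq all 71. The 12 h and iCRT14 RNA-seq libraries were made with the KAPA kit, per the labels' protocols, and were not compared here. Scores were tested with limma 3.58.1 over all 71 libraries. Tests were two-sided, with Benjamini-Hochberg adjustment over all features and calls at 0.05. CPM were computed with the TMM scaling. Fold changes are edgeR's log2 estimates. For genes and peaks ± gives an approximate standard error, the absolute log2 change over the square root of the F statistic. For motif scores ± is limma's moderated standard error. R was 4.3.3 and DESeq2 1.42.0, the latter an alternative. The fitting steps were tested on simulated data. p-values and standard errors rest on the spread between pools of tips within groups. That spread was estimated over all libraries of each fit, not only those compared.

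Gene models were named as the 2 largest head changes each way among those called, without overlap between times and with a mean of at least 10 CPM at the higher time. Peaks were named likewise, 6 each way. For each difference of changes the largest among those called were named with no condition on level or overlap: 1 gene model and 2 peaks each way. Motifs were named as the 8 largest changes each way and 3 each way for each difference, and the first-named motif of each list. Motif lists followed the motif names and class tags, with each motif in 1 list. Groups, members and lists were chosen with earlier results of these data known. Pairing was checked by correlating the deviations of same-numbered libraries between times within head, foot and iCRT14 tips, and at each time between head and foot and between untreated and iCRT14 tips. Same-numbered libraries of 3 h and 8 h head tips did not deviate together (r of -0.41 to 0.03), so the numbers were not used as pairs. The alternatives were other scaling, no filter on low counts, DESeq2, fits on fewer or more libraries, the replicate number as a block, and leaving out each library.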

Additional observations from a re-analysis of the deposited data

Results flagged for a closer look

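Over the 44 named peaks and motifs, untreated head and foot tips of 8 h and iCRT14 tips of 3 h and 8 h each gave 44 groups of 4 or 5 libraries, and 15 of all these groups held a library far from its group. Chance flags about 1 in 20 groups. In untreated head tips there were 5. In replicate 3 the peak at Sc4wPfr_417.3:1604995-1605152 held 2.58 CPM, against 0.791 to 1.25 CPM in the others. The peak at Sc4wPfr_391:1727888-1728054 held 1.70 CPM there, against 0.446 to 0.647 CPM. In replicate 5 the CRE-type motifs Atf7, JunD and c-Jun-CRE scored 0.389, 1.71 and 0.934, while the other 4 libraries lay between -4.72 and -3.08.

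Foot tips of 8 h held 2 such libraries. Replicate 1 held 5.08 CPM at Sc4wPfr_165:384774-385162, against 2.91 to 3.51 CPM, and replicate 5 held 3.27 CPM at Sc4wPfr_417.3:1604995-1605152, against 0.685 to 0.787 CPM. In iCRT14 tips of 3 h, replicate 1 was highest at Sc4wPfr_405:442123-443132 (61.8 CPM, against 29.3 to 34.1) and at Sc4wPfr_338.1:843134-845588 (259 CPM, against 169 to 184), and lowest for CEBP (0.533, against 1.67 to 1.80). Replicate 4 held 39.0 CPM at the second peak of the pair on Sc4wPfr_155, against 23.7 to 25.3 CPM. In iCRT14 tips of 8 h, replicate 5 held 22.7 CPM at Sc4wPfr_165:384774-385162, against 6.14 to 9.97 CPM, and scored 0.749 for Gfi1b, against -1.89 to -1.42. Replicate 4 held 0.376 CPM at Sc4wPfr_38:838217-838370, against 0.0981 to 0.130 CPM, which are 2 counts against 1. Replicate 2 scored -3.75 for E2A near PU.1, against -2.0003 to -1.29.

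The change from 3 h to 8 h differed between head and foot tips at 364 gene models, 837 peaks and 91 motifs. Between untreated and iCRT14 head tips it differed at 4222 peaks and 143 motifs. Each of these comes from a test of the difference itself (edgeR or limma).

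Head-minus-foot differences on the log2 scale were 1.61 for g24952, 1.23 for g4715, 5.40 for g33373 and -5.02 for g32959. Among peaks they were 3.74 at Sc4wPfr_513:81401-81625, 5.72 at Sc4wPfr_165, 3.24 at Sc4wPfr_177.1, 4.31 at Sc4wPfr_224.1, -4.05 at Sc4wPfr_417.3 and -2.86 at Sc4wPfr_608.1. Among motif scores they were 6.77 for Tcf4, 3.72 for Smad4, 2.80 for Tcf3, 4.17 for TCFL2, 4.21 for JunD, 5.67 for CRE, -2.82 for BMAL1, 5.21 for Nkx6.1, -3.37 for Pbx3, -3.33 for NFY and -3.26 for E2F7.

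Untreated-minus-iCRT14 differences (log2) were positive at 9 of the named peaks. They were 6.90 and 7.47 at the pair on Sc4wPfr_513 and 7.30 at Sc4wPfr_38, all 3 fitted to counts at or near the smallest listed, 3.22 at Sc4wPfr_165, 3.51 at Sc4wPfr_177.1, 3.96 at Sc4wPfr_492.1, 3.91 at Sc4wPfr_1127, 4.46 at Sc4wPfr_227 and 2.33 at Sc4wPfr_224.1. They were negative at -4.62 and -4.16 for the pair on Sc4wPfr_391, -2.41 and -1.72 for the pair on Sc4wPfr_155, -1.41 at Sc4wPfr_798, -3.01 at Sc4wPfr_405, -1.74 at Sc4wPfr_338.1, -2.30 at Sc4wPfr_417.3 and -2.12 at Sc4wPfr_608.1. That of Sc4wPfr_608.1 was lost without replicate 1 of untreated 3 h tips (edgeR adjusted p = 0.0698) and without 11 other libraries (0.0602 to 0.127).

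Motif differences of the same kind were 6.21 for Tcf4, 4.595 for Tcf3, 2.93 for TCFL2, 2.13 for Sox2, 3.40 for Smad4, 2.92 for Gfi1b, 3.36 for RFX, 2.82 for E2F, 3.58 for YY1, 5.24 for E2A near PU.1 and 4.62 for E2A. They were -7.53 for Atf1, -5.73 for Atf7, -5.47 for JunD, -4.98 for c-Jun-CRE, -6.07 for CRE, -3.79 for Atf2, -4.42 for BMAL1, -3.88 for Chop, -3.86 for Pbx3, -4.20 for AP-1 and -2.55 for CEBP. The calls of Sox2 and E2F in this list, and that of JunD by side, were lost without replicate 1 of untreated 3 h tips.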

How the results depend on the processing

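No named feature changed sign under any alternative that gave it a value. The split between directions did move. With library size alone the head calls were 725 higher and 1821 lower gene models and 6156 opened and 3368 closed peaks. The peaks more positive in head than in foot tips then numbered 1056, and those more positive in untreated tips than in iCRT14 2477. DESeq2 gave 2574 for the last. Negative differences by side numbered 224 peaks with the 36 untreated libraries and 225 with the untreated table. Total counts stayed within 1.5 times under other scaling, no filter on low counts, DESeq2, subtracting 1, robust moderation of motif variances, and the untreated libraries or table alone.

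Fitted on only the groups compared, the head calls numbered 1543 gene models, 4899 peaks and 100 motifs. The motifs that differed by side numbered 49, and the peaks and motifs that differed from iCRT14 numbered 1012 and 95. With all 42 RNA-seq libraries, across both kits, 405 gene models were called and 98 differed by side. Fewer libraries leave fewer degrees of freedom, and the spread is then that of the groups compared alone. The cause of these moves was not tested.

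With the replicate number as a block, in fits on only the groups compared, the head calls were 1179 gene models, 1949 peaks and 53 motifs, to be set beside the 1543, 4899 and 100 of the same fits with no block. The blocked counts were 2732 for peaks that differed by side (615 with no block), 682 for peaks that differed from iCRT14 (1012) and 80 for motifs that did (95). Same-numbered head libraries did not pair across the times. A head call lost with the block therefore does not show whether its effect is weaker. Why the counts moved in the blocked fits by side and against iCRT14 was not tested.

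Leaving out 1 library gave 1606 to 2785 gene models, 5033 to 8540 peaks and 149 to 189 motifs in head tips. The differences by side ranged over 304 to 395 gene models, 505 to 1081 peaks and 70 to 117 motifs, and those from iCRT14 over 1152 to 5090 peaks and 123 to 147 motifs. Calls shared by head and foot tips ranged over 769 to 1256 gene models and 2190 to 3330 peaks.

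Of 105 calls of single features, 28 were lost under at least 1 alternative, at adjusted p of 0.0505 to 0.406. These were 111 losses, 71 of them by leaving out 1 library and 28 in fits on only the groups compared, blocked or not. Among head changes they touched Pbx3, E2F, YY1, AP-1, Bach1 and the peak on Sc4wPfr_608.1. Among differences by side they touched g24952, g32959, CRE, JunD, Nkx6.1, Pbx3, E2F7 and the peaks at Sc4wPfr_513:81401-81625 and on Sc4wPfr_608.1. Among differences from iCRT14 they touched Atf1, Atf2, CRE, CEBP, E2A, E2F, Smad4, Sox2, YY1, the same pair of peaks and those on Sc4wPfr_798 and Sc4wPfr_417.3. Depth limits the very low peaks: with a smallest count of 1, their levels before opening are upper values.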
